A study of Homo sapiens with 8 samples.

Results

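A group of 10 genes of lipid storage and fatty acid metabolism was followed through RNA-seq of SLINKY knockdown in a pair of clear cell renal cell carcinoma (ccRCC) cell lines. They were PLIN2, PLIN3, HILPDA, PNPLA2, DGAT1, DGAT2, CPT1A, SCD, FASN and ACACA, which is 10 of the 18693 genes with a protein-coding RefSeq row. The rule that names them is their function and holds no measured value, but they were chosen with earlier results of these data known. All 10 were also among the 10503 genes whose mean over the 8 libraries reached 1 FPKM (a read level corrected for transcript length and for library depth), the genes that entered every test.

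SLINKY is a long intergenic non-coding RNA (lincRNA) studied for its association with outcome in ccRCC. A498 cells, grown in DMEM, and 786-O cells, grown in RPMI-1640, are established human ccRCC lines, both known to lack functional VHL, and each was transfected with a non-target control siRNA (NTC) or with SLINKY siRNA #1 or #2. Each line had 2 NTC libraries and 1 library per SLINKY siRNA, so the 8 libraries formed 4 groups of 2, and both siRNAs of a line shared the same NTC libraries. The siRNAs were used at 50 nM, and the labels give a transfection of 16 hr and describe every siRNA as a pool. The study's methods give the same transfection time and, as a separate item, a later RNA harvest. They describe a pair of independent SLINKY siRNAs rather than a pool. The sources do not say whether libraries of a group came from separate cultures, so the p-values measure the spread between these libraries, which may be technical. Line and culture medium cannot be told apart, and in bulk RNA fewer expressing cells cannot be told apart from less RNA per cell.

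Cells store surplus fatty acids as triglyceride in lipid droplets, and the cytoplasm of ccRCC is clear because droplets and glycogen fill it. Acetyl-CoA carboxylase (ACACA) and fatty acid synthase (FASN) build saturated fatty acids, stearoyl-CoA desaturase (SCD) introduces a double bond, and the acyltransferases DGAT1 and DGAT2 complete the triglyceride. The perilipins PLIN2 and PLIN3 coat the droplet, PNPLA2 (adipose triglyceride lipase) opens it, HILPDA is a hypoxia-inducible inhibitor of that lipase, and CPT1A, the carnitine palmitoyltransferase of the outer mitochondrial membrane, admits fatty acids to oxidation.

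SLINKY was lower in all 4 siRNA libraries than in the controls. Relative to the mean NTC level, siRNA #1 lowered it by 89.3% in A498 and 96.0% in 786-O, and siRNA #2 by 80.3% and 58.2%. The starting levels differed, at 14.6 and 16.1 FPKM in the A498 NTC libraries and 1.45 and 1.39 FPKM in those of 786-O. With siRNA #1 and #2 it was 1.64 and 3.01 FPKM in A498 and, near the floor, 0.0569 and 0.594 FPKM in 786-O. The depth estimated from the values of single reads was 2.50e+07 to 6.44e+07 mapped reads per library. Of the markers listed for kidney epithelium and ccRCC, PAX8 was between 39.2 and 48.1 FPKM and VIM between 2024 and 3039 FPKM. The epithelial keratins KRT8 and KRT18 were above PAX8 in every library, and PAX2 was low but above 1 FPKM in every library. In contrast, CA9 and NDUFA4L2, which mark ccRCC tumours, stayed below 1 FPKM in all libraries. Markers of the other cell types that carry such genes were near the floor. The 4 adipocyte markers (ADIPOQ, LEP, PLIN1 and CIDEC) summed to 0.437 to 0.880 FPKM in A498 and 0.295 to 0.457 FPKM in 786-O, with none reaching 1 FPKM and ADIPOQ listed at 0 in every 786-O library. The hepatocyte, leukocyte and endothelial lists also held no gene that reached 1 FPKM.

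Of the 10 genes, 6 had an entry in the RefSeq promoter table (PLIN2, PLIN3, PNPLA2, CPT1A, SCD and ACACA). The 250 bases before the transcript start are shown for PLIN2 and SCD, since these 2 genes differed most between the lines, in the build GRCh38.p14. The PLIN2 sequence lies on the minus strand at chr9:19127493-19127742, and its capitals mark the core of the hypoxia response element, searched as ACGTG or GCGTG on both strands. It held 4 matches, starting from 120 to 68 bases before the start, and the last pair are the overlapping strands of 1 palindrome, CACGTG. At least 1 match is present in 43.2% of all 35116 promoter windows in the table, and 4 or more in 3.22%. The SCD sequence lies on the plus strand at chr10:100346983-100347232, and its capitals mark the CCAAT box, searched as CCAAT on both strands. It held 2 matches, starting 229 and 186 bases before the start, against at least 1 match in 32.0% of all windows and at least 2 in 9.53%. Besides these, the palindrome CACGTG and the nuclear receptor element AGGTCA were searched, 4 motifs in all, and the motif shown differs between PLIN2 and SCD. The hypoxia core was present in 6 of the 8 windows of the 6 genes, including that of PLIN3 with 3 matches and that of SCD with 1. Several of these windows belong to ACACA, each with a match, so windows are not separate genes. PNPLA2 and CPT1A had no match. A match describes letters in the window and was not measured as a binding site.
PLIN2: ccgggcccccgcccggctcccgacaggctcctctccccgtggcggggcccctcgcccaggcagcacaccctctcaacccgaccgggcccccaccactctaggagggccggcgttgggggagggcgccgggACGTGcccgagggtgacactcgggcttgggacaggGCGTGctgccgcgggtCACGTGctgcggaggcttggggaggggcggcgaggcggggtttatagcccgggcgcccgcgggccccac
SCD: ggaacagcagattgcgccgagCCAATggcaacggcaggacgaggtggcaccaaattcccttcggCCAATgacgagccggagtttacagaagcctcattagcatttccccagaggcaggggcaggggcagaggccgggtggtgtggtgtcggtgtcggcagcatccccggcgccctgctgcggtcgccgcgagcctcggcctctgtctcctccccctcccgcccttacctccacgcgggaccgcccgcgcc

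The lines differed strongly in 3 of the 10 genes, SCD and PLIN2 (higher in A498) and HILPDA (higher in 786-O). PLIN2, the most abundant of the 10, was measured at 468 and 459 FPKM in the A498 NTC libraries and at 422 (siRNA #1) and 455 FPKM (siRNA #2). Both NTC libraries of 786-O were at 101 FPKM, and the siRNA libraries at 82.1 (siRNA #1) and 96.0 FPKM (siRNA #2). Every A498 library was above every 786-O library, with means of 451 ± 19.8 and 95.1 ± 8.96 FPKM (SD, n = 4), and the difference on the log2(FPKM + 0.1) scale was 2.25 ± 0.052 (SE, limma adjusted p = 1.35e-10). Such separation was common, as 77.3% of all genes tested had all 4 libraries of 1 line above all 4 of the other. PLIN2 had a single protein-coding row, on chromosome 9 (hg19, 19115759 to 19127604, minus strand, 8 exons), and the authors' 95% interval of that row spanned 0.946% to 2.71% of the value to either side. A non-coding RefSeq row at the same locus reached at most 1.38 FPKM and was not summed.

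SCD showed the widest gap of the 10. It was 42.8 and 45.4 FPKM in the A498 NTC libraries and 45.6 and 47.8 FPKM with siRNA #1 and #2. The 786-O libraries were at 6.68 and 6.60 FPKM (NTC) and 6.35 and 6.37 FPKM (siRNA #1 and #2), all far below A498. The line means were 45.4 ± 2.06 and 6.50 ± 0.166 FPKM (SD, n = 4), a log2 difference of 2.78 ± 0.046 (SE, limma adjusted p = 1.50e-11). Its row covers 102106772 to 102124588 of chromosome 10 (hg19, plus strand, 6 exons). A processed pseudogene of SCD is annotated elsewhere in the genome, and reads shared with it were not separated here.

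HILPDA went the other way. The A498 libraries were at 5.10 and 6.16 FPKM (NTC) and 5.33 and 6.34 FPKM (siRNA #1 and #2), and the 786-O libraries at 16.7 and 17.3 FPKM (NTC) and 18.0 and 18.6 FPKM. The groups did not overlap, with means of 5.74 ± 0.610 in A498 and 17.6 ± 0.790 FPKM in 786-O (SD, n = 4) and a log2 difference of -1.61 ± 0.072 (SE, limma adjusted p = 1.50e-08). HILPDA lies on chromosome 7 (hg19, 128095884 to 128098472, plus strand, 2 exons) and was counted in 2 rows, which differed between the lines by -1.64 and -1.54 on the log2 scale when fitted separately. It is the shortest of the 10 loci, and the interval of its higher row reached 8.50% to 33.4% of the value.

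**Figure D1:**
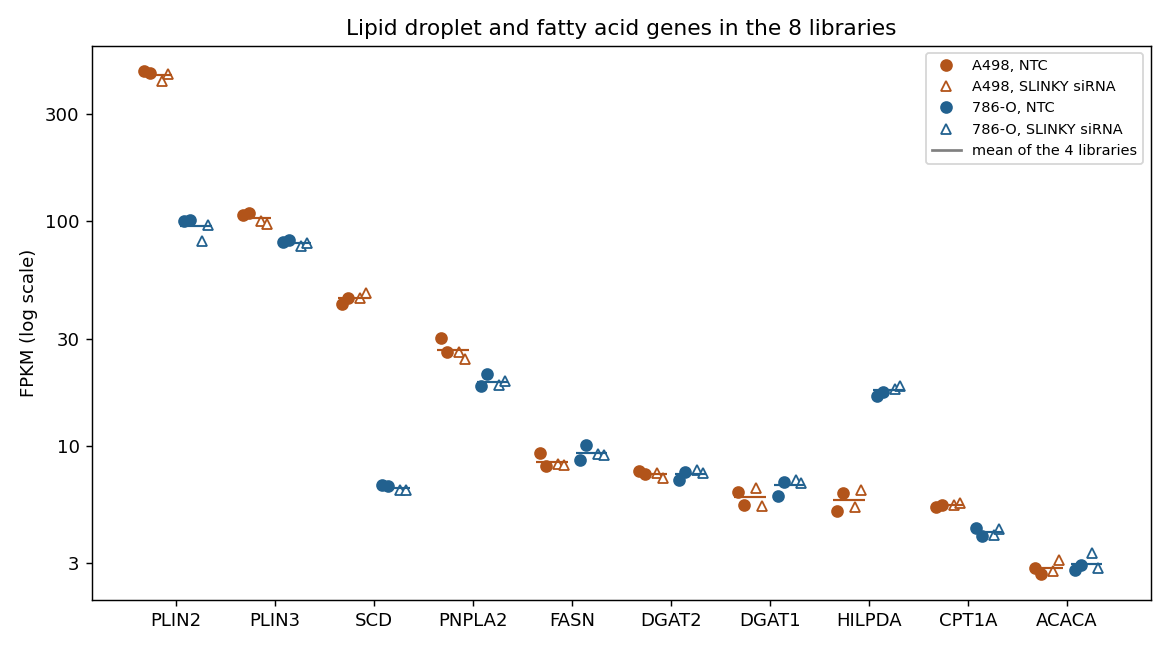
FPKM (log axis) of each of the 10 genes in the 8 libraries, ordered by the A498 mean. Circles are NTC libraries, triangles SLINKY siRNA libraries, orange A498, blue 786-O, and lines the mean of the 4 libraries of a line. PLIN2 and SCD sit higher in A498 and HILPDA sits higher in 786-O, while triangles and circles of a line stay close together.

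Smaller differences placed PLIN3, PNPLA2 and CPT1A above 786-O in A498. PLIN3 was 97.2 to 109 FPKM in A498 and 77.3 to 82.4 FPKM in 786-O, without overlap, and differed by 0.36 ± 0.034 (log2, SE, limma adjusted p = 4.08e-06). The lipase gene PNPLA2 was 24.5 to 30.3 FPKM in A498 and 18.4 to 20.9 FPKM in 786-O and differed by 0.46 ± 0.062 (limma adjusted p = 6.34e-05). CPT1A, the only gene of fatty acid oxidation among the 10, was 5.36 to 5.56 FPKM against 3.95 to 4.30 FPKM, a difference of 0.39 ± 0.051 (limma adjusted p = 4.95e-05). Summed over rows, these 3 differences stood on the same side of the threshold under every alternative tried. Fitted by themselves, the 2 highest rows of PLIN3 differed by 0.35 (limma adjusted p = 0.0171) and 0.38 (adjusted p = 0.0698), so 1 of them was not called.

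Among the 10 genes, DGAT2, ACACA, FASN and DGAT1, whose enzymes assemble fatty acids and triglyceride, were close between the lines. DGAT2 had means of 7.48 ± 0.218 and 7.48 ± 0.334 FPKM (SD, n = 4), with a 95% interval of the log2 difference from -0.11 to 0.11. ACACA was 2.67 to 3.08 FPKM in A498 and 2.79 to 3.32 FPKM in 786-O (log2 difference -0.06, interval -0.21 to 0.09, limma adjusted p = 0.431). FASN was 8.10 to 9.31 and 8.65 to 10.1 FPKM (log2 difference -0.13, interval -0.27 to 0.01, limma adjusted p = 0.0782), and its highest A498 value came from 1 NTC library, without which the limma adjusted p was 0.0263. Without the first NTC library of 786-O it was 0.0208, and over all alternatives it ran from 0.0208 to 0.333. DGAT1 was 5.41 to 6.47 and 5.98 to 7.06 FPKM, overlapping ranges, and its log2 difference of -0.18 (interval -0.35 to -0.01) only just passed (limma adjusted p = 0.0492). That call was lost in 11 of 18 alternatives, with adjusted p from 0.0225 to 0.296.

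In all, 7 of the 10 genes passed an adjusted p of 0.05 between the lines (5 higher and 2 lower in A498), where 83.0% of all genes tested did so (40.6% higher and 42.5% lower). Past 2-fold as well, 3 of the 10 passed, against 23.3% of all genes tested (15.0% higher and 8.31% lower in A498). The median log2 difference of the 10 was 0.18, beside -0.02 over all genes, and the middle 90% of all genes ran from -1.29 to 2.79. HILPDA lay below that range and SCD and PLIN2 inside its upper end.

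**Figure D2:**
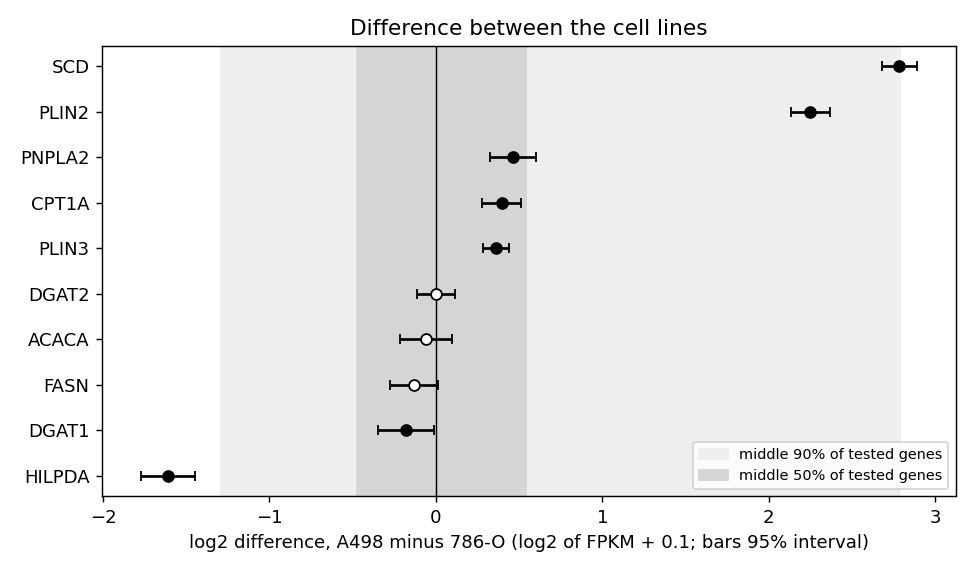
Difference between A498 and 786-O for each gene on the log2(FPKM + 0.1) scale, with its 95% interval. Filled points passed a limma adjusted p of 0.05, and the shaded bands hold the middle 50% and 90% of the 10503 genes tested. SCD (2.78) and PLIN2 (2.25) stand apart to the right and HILPDA (-1.61) to the left of the other 7 genes.

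FPKM is per length, so levels can also be ordered between genes within a line. In A498 the order was PLIN2, PLIN3, SCD, PNPLA2, FASN, DGAT2, DGAT1, HILPDA, CPT1A and ACACA. HILPDA overlapped DGAT1 before it and CPT1A after it, and no other neighbours overlapped. In 786-O, PLIN2 and PLIN3 overlapped at the top, PNPLA2 and HILPDA overlapped next, FASN followed, and DGAT1 overlapped DGAT2 before it and SCD after it, ahead of CPT1A and ACACA. SCD therefore held place 3 in A498 and place 8 in 786-O, and HILPDA place 8 and place 4.

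Ratios of a pair of genes within a library do not depend on the scaling of that library. The ratio of PLIN2 to PLIN3, the 2 droplet coat proteins, was 4.19 to 4.68 in A498 and 1.06 to 1.24 in 786-O. HILPDA to PNPLA2, the inhibitor to its lipase, was 0.168 to 0.259 in A498 and 0.830 to 0.964 in 786-O. SCD to FASN, the desaturase to the synthase, was 4.601 to 5.85 in A498 and 0.653 to 0.773 in 786-O. In each of these 3 ratios the lines did not overlap (exact two-sided permutation test, p = 0.0286, the smallest that 4 against 4 libraries allow, 0.0381 after Benjamini-Hochberg adjustment over the 4 ratios computed). The fourth, DGAT1 to DGAT2, was 0.733 to 0.856 and 0.854 to 0.907 (exact permutation p = 0.0571). The first 3 ratios each hold PLIN2, HILPDA or SCD, whose separation was given above, so their p-values are not separate support. How often pairs of genes in general separate the lines was not computed.

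**Figure D3:**
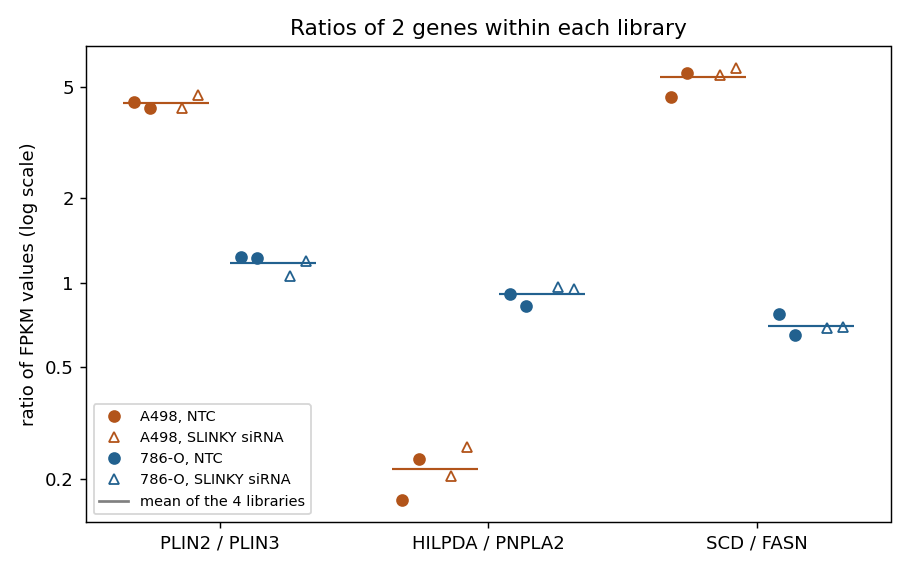
Ratio of the FPKM values of 2 genes within each library, on a log axis, for A498 (orange) and 786-O (blue), with NTC libraries as circles, SLINKY siRNA libraries as triangles and the mean of 4 libraries as a line. The lines of cells are separated in all 3 ratios, with PLIN2 to PLIN3 and SCD to FASN higher in A498 and HILPDA to PNPLA2 higher in 786-O.

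Of 112 other genes listed for the same pathways, 80 reached the expression filter. Between the lines 39 were higher in A498, 27 lower and 14 not called, which is 82.5% called against the 83.0% of all genes. Their median log2 difference was 0.13, beside -0.02 over all genes, and at 2-fold or more 12 of the 80 were higher and 3 lower in A498, where 15.0% and 8.31% of all genes were. By role, 9 of 10 regulators of lipid genes were higher in A498 and 1 lower, and of 23 genes of fatty acid oxidation 6 were higher, 11 lower and 6 not called. Over all genes 40.6% were higher and 42.5% lower, and no role was tested against them. Fatty acid synthesis, elongation and desaturation gave 6 higher and 7 lower of 14, glycerolipid synthesis 6 and 5 of 12, uptake, binding and activation 7 and 2 of 12, other droplet proteins 4 and 0 of 6, and lipolysis 1 and 1 of 3.

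Among the regulators, PPARG, the nuclear receptor that drives lipid storage, was 14.2 to 15.6 FPKM in A498 and 4.85 to 5.30 FPKM in 786-O (log2 difference 1.53, limma adjusted p = 2.25e-09). SREBF1, the transcription factor of fatty acid synthesis, was 7.82 to 9.40 against 2.64 to 2.93 FPKM (1.59, limma adjusted p = 9.10e-09). SCAP, the protein that escorts SREBP to the Golgi, was the regulator that was lower in A498, at 6.05 to 7.66 against 13.2 to 14.5 FPKM (-0.98, limma adjusted p = 1.34e-06). Both transcription factors and SCD were thus higher in A498, and the escort protein of SREBP was lower there. The synthesis genes FASN and ACACA were not higher in A498 (log2 differences -0.13 and -0.06, neither called).

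Other droplet proteins were led by BSCL2 (seipin, which organises droplet formation at the endoplasmic reticulum), at 26.8 to 31.3 FPKM in A498 and 3.39 to 6.49 FPKM in 786-O (log2 difference 2.49, limma adjusted p = 3.21e-07). HSD17B11, a dehydrogenase found on droplets, was 35.3 to 40.0 against 13.7 to 14.4 FPKM (1.41, limma adjusted p = 2.94e-09). PLIN1 and PLIN5, the perilipins of adipocytes and of oxidative tissue, stayed under 0.03 FPKM in every library. In lipolysis ABHD5, the activator of PNPLA2, was lower in A498 (2.66 to 2.99 against 4.81 to 5.31 FPKM, log2 difference -0.79, limma adjusted p = 8.53e-07).

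The 80 genes that passed the filter held 3 fatty acid binding proteins, of which FABP6 and FABP4 were higher in A498 and FABP5, the most abundant, was not called. FABP5 was 184 to 204 FPKM in A498 and 177 to 197 FPKM in 786-O (log2 difference 0.05, limma adjusted p = 0.301). FABP6, the ileal bile acid binding protein, was 121 to 136 FPKM in A498 and 7.18 to 8.32 FPKM in 786-O (log2 difference 4.01, limma adjusted p = 8.15e-12). FABP4, the adipocyte binding protein, was 3.50 to 5.13 FPKM in A498 and listed at 0, within rounding, in every 786-O library, so that its fold depends on the pseudocount and is not given. ELOVL3 (2.44) and ELOVL7 (1.31), elongases of long chain fatty acids, were higher in A498 on the log2 scale, whereas the elongase ELOVL1 (-0.79) and the desaturase FADS2 (-0.85) were lower. GPAM, the mitochondrial acyltransferase that begins glycerolipid synthesis, was 0.889 to 1.08 FPKM in A498 and 3.70 to 3.81 FPKM in 786-O (-1.86, limma adjusted p = 3.41e-09), and the acyltransferases AGPAT4 (-0.90) and AGPAT3 (-0.82) were lower in A498 too. In oxidation, ETFB (2.17, the electron transfer flavoprotein beta subunit) was higher in A498, and ACADSB (-1.56), the thiolase ACAA2 (-1.52) and the isomerase ECI2 (-0.98) lower. The called genes of the list named here kept direction and call in every alternative fit run for them.

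**Figure D4:**
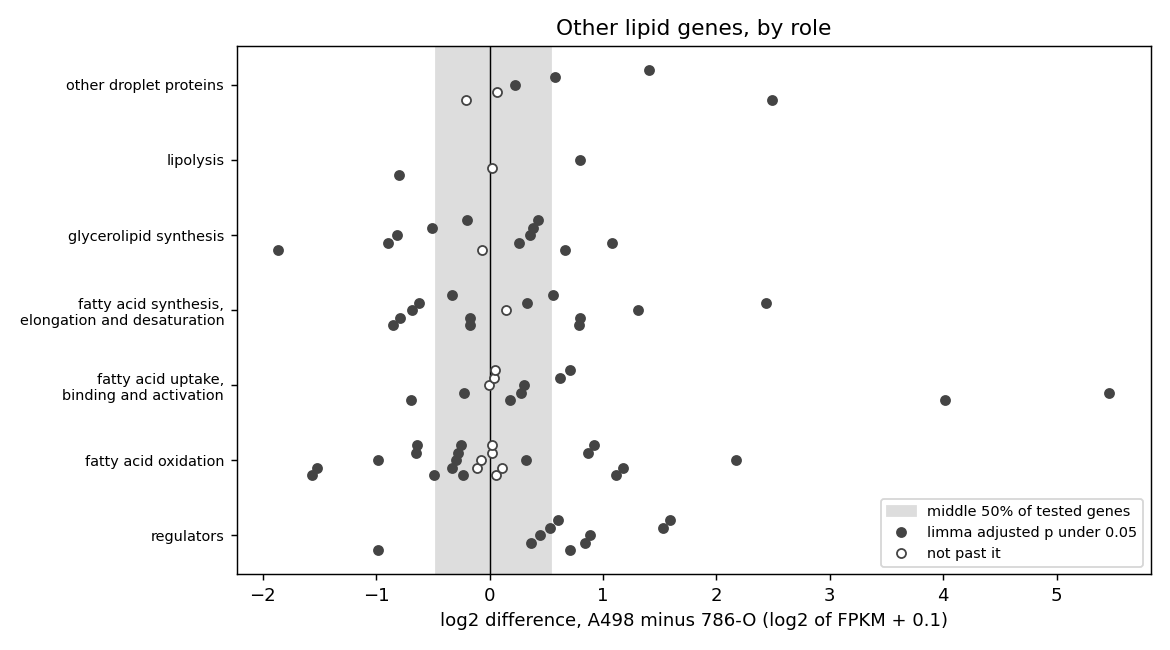
Difference between A498 and 786-O on the log2(FPKM + 0.1) scale for the 80 other lipid genes that passed the filter, by role. Filled points passed a limma adjusted p of 0.05, open points did not, and the grey band holds the middle 50% of all genes tested. Regulators lie to the right apart from SCAP (-0.98), and the other roles spread to both sides.

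SLINKY knockdown changed none of the 10 genes past an adjusted p of 0.05, over both lines, within A498, within 786-O, or in the difference of its effect between the lines. Over both lines limma called 0 of all 10503 genes (0% background), while 1249 (11.9%) had an unadjusted p under 0.05, among them 2 of the 10, PLIN2 and PLIN3. Within A498 it called 1 gene (0.00952%), MAPK8, and within 786-O 0 genes, with 641 (6.10%) and 483 (4.60%) at an unadjusted p under 0.05. For the 10 genes the adjusted p of the difference between lines was 0.99984 throughout, and 0 of them had an unadjusted p under 0.05 for it, against 1.82% of all genes. The median log2 change of the 10 over both lines was 0.01, as was that of all genes.

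Both perilipins were nevertheless below the NTC libraries in every siRNA library. For PLIN2 the siRNA values of 422 and 455 FPKM lay under the NTC values of 468 and 459 FPKM in A498, and those of 82.1 and 96.0 FPKM lay under 101 FPKM in 786-O. The log2 change over both lines was -0.13 ± 0.052 (SE, 95% interval -0.25 to -0.02), with an unadjusted limma p of 0.0308 and an adjusted p of 0.395. The exact permutation test within lines gave p = 0.0556, the smallest its 36 arrangements allow, so that test could not pass 0.05 for any gene. PLIN3 had the same permutation p, and after adjustment over the 10 genes it was 0.278 for both.

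PLIN3 was 106 and 109 FPKM with NTC and 101 and 97.2 FPKM with siRNA #1 and #2 in A498. In 786-O it was 81.4 and 82.4 FPKM with NTC and 77.3 and 80.2 FPKM with the siRNAs. Its log2 change was -0.09 ± 0.034 (SE, interval -0.17 to -0.01, limma unadjusted p = 0.0263, adjusted p = 0.395). Such an order, with every siRNA library below both NTC libraries of its line in both lines, was met by 2 of the 10 genes and by 4.97% of all genes tested, and the reverse order by 0 of the 10 and 6.75% of all genes. PLIN3 shares its locus with a GENCODE lncRNA row that stood at 46.1 and 61.9 FPKM (NTC) and 73.9 and 70.8 FPKM (siRNA #1 and #2) in A498, and at 56.3 and 44.7 against 59.6 and 37.2 FPKM in 786-O. Its part in the PLIN3 values was not tested. In the highest PLIN3 row alone the log2 change was 0.05, so the direction of the sum was not kept there.

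The remaining genes were mixed. PNPLA2 was 30.3 and 26.1 FPKM with NTC and 26.1 and 24.5 FPKM with siRNA #1 and #2 in A498, and 18.4 and 20.9 against 18.6 and 19.4 FPKM in 786-O, a log2 change of -0.10 (interval -0.24 to 0.04, limma adjusted p = 0.537). SCD lay above NTC in both A498 siRNA libraries and below it in both 786-O siRNA libraries, by 0.08 and -0.06 on the log2 scale, and the limma test of that difference had an adjusted p of 0.99984. Over both lines its change was 0.01 (interval -0.09 to 0.11). The log2 difference was 0.08 for HILPDA (interval -0.09 to 0.24), 0.09 for ACACA (-0.06 to 0.25), 0.07 for DGAT1 (-0.10 to 0.23), -0.05 for FASN (-0.20 to 0.09), and 0.01 for CPT1A and DGAT2 (-0.10 to 0.13 for both). None of these intervals reached a ratio of 5 to 4 in either direction (25% higher, or lower by the same ratio), the fold used in the study to call single siRNAs. Separation of the siRNA from the NTC libraries, without overlap, occurred in 4 of the 10 genes in each line, where 37.3% of all genes did so in A498 and 32.8% in 786-O.

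With each siRNA set against the mean of the shared NTC libraries, 0 of the 10 genes passed a ratio of 5 to 4 in any of the 4 comparisons. Of all genes, 3.81% and 5.49% passed with siRNA #1 and #2 in A498 and 5.91% and 3.92% in 786-O. The NTC libraries differed from each other past that fold at 4.67% of genes in A498 and 4.63% in 786-O. These compare 1 library with 1, whereas each siRNA library was set against a mean of 2, so the shares are not on the same footing. The most extreme of the 10 genes was PLIN2 with siRNA #1 in 786-O, at -0.30 on the log2 scale. Between the NTC libraries the log2 differences of the 10 genes lay from -0.21 to 0.27 in A498 and, for 786-O, from -0.12 to 0.22. Each siRNA had 1 library per line, so these single comparisons carry no test.

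**Figure D5:**
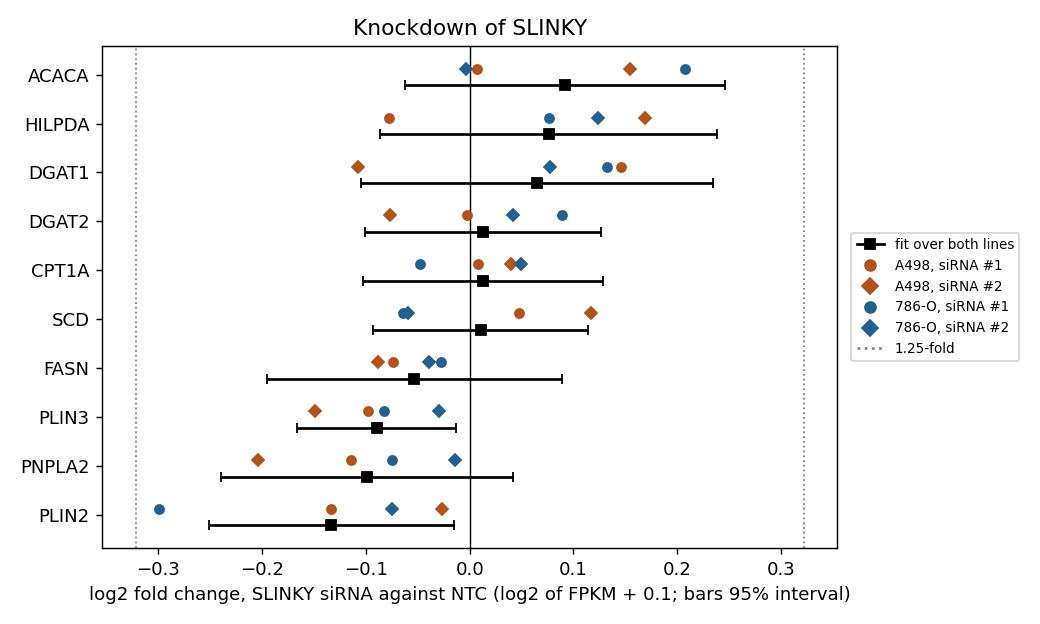
Log2 fold change of SLINKY siRNA against NTC for each gene. Squares with bars give the limma estimate over both lines with its 95% interval, coloured points the 4 single siRNA libraries against their NTC mean, and dotted lines a ratio of 5 to 4 in either direction. All points lie inside the dotted lines, and the bars of PLIN2 and PLIN3 alone exclude 0.

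DGAT2 was steady as a sum while its 2 rows were not, an observation made after the values were seen. The row NM_001253891 was 3.32 and 2.39 FPKM with NTC and 5.36 and 4.71 FPKM with siRNA #1 and #2 in A498. The row NM_032564 was 4.38 and 5.08 FPKM with NTC and 2.20 and 2.48 FPKM with the siRNAs, so the second row was the higher one with NTC and the lower one with both siRNAs. In 786-O the first row was 2.74 and 4.73 against 5.02 and 4.22 FPKM and the second 4.27 and 2.88 against 2.76 and 3.30 FPKM, with NTC and siRNA values that overlapped. In the fit of every RefSeq row by itself the A498 changes were 0.81 (limma unadjusted p = 0.0334, adjusted p = 0.857) and -0.98 (0.00409 and 0.665), and neither was called. Over both lines they were 0.58 and -0.60 (limma unadjusted p = 0.02999 and 0.0237), each with a limma adjusted p of 0.609. The sum of both rows stayed between 7.004 and 7.78 FPKM in all 8 libraries. How Cufflinks divides reads between overlapping transcripts of one gene was not tested here.

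Other loci also overlap other rows in position, and how many reads they share was not measured. PNPLA2 overlaps a GENCODE lncRNA row of 10.7 to 15.9 FPKM. In A498 this row stood at 15.9 and 13.2 FPKM with NTC and 10.7 and 11.6 FPKM with the siRNAs. In 786-O the values overlapped, at 11.4 and 14.6 FPKM with NTC and 13.6 and 11.6 FPKM with the siRNAs. DGAT1 overlaps the heat shock factor gene HSF1, which reached 82.6 FPKM against at most 7.06 FPKM for DGAT1, and no source used here states counting by strand, so reads in the overlap cannot be told apart.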

How the data were processed

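RNA-seq of 8 libraries was analysed from the deposited FPKM tables. The authors aligned the reads and estimated FPKM per annotation entry (TopHat2 2.0.0, Cufflinks 2.0.2 and hg19 per the submitters' processing notes), with the 95% interval of each value in columns of its own. Each file held 75378 rows, of which 35951 carried an NM accession, and 97.7% of those were matched to a current symbol through the RefSeq table (GRCh38.p14). FPKM was summed per symbol. Sequences came from RefSeq.

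Genes with a mean of at least 1 FPKM were fitted as log2(FPKM + 0.1) in limma 3.58.1 (R 4.3.3) with a variance trend. Line effects were adjusted for knockdown and knockdown effects for line, and a model of the 4 groups gave effects within lines and their difference. Adjusted p-values (Benjamini-Hochberg, threshold 0.05) cover all 10503 genes. The script was tested on simulated data. Depth is not recorded and was estimated from rows worth 1 read. Other pseudocounts, filters, scalings, row choices, a replicate block and fits without each library were tried. The text names the 10 genes, marker genes, SLINKY and, from the pathway list, up to 10 called genes per direction with the largest differences, apart from 1 that is not reported here. PLIN5, FABP5, MAPK8, HSF1 and the separate rows are named after their values were seen. The 10 genes and the lists were chosen with earlier results of these data known. Ratios were compared by exact permutation (scipy 1.17.1).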

Additional observations from a re-analysis of the deposited data

Results flagged for a closer look

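FASN in A498 had 1 library far from the others. The first NTC library was at 9.31 FPKM and the other 3 A498 libraries were at 8.10 to 8.26 FPKM, a gap of 0.865 of the whole range, above Dixon's 95% critical value for 4 samples. Of 20 groups examined (10 genes in each line) this was the only one, and chance flags about 1 in 20.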

How the results depend on the processing

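The line differences of PLIN2, PLIN3, HILPDA, PNPLA2, CPT1A and SCD kept direction and significance in every alternative that gives 1 value per gene, while 1 row of PLIN3 was not called when each NM row was fitted on its own. None of the 10 genes was called for the knockdown over both lines, within either line or in the difference between lines under any alternative run. DGAT2, with no line difference, changed sign with NTC libraries only (0.053) and ranged from -0.034 to 0.025 with 1 library left out. Knockdown changes near 0 changed sign as well. With the highest row per symbol PLIN3 gave 0.051 and HILPDA -0.15, and DGAT2 moved from 0.01 to 0.58 without a call. With median ratio scaling DGAT2 gave -0.0019, CPT1A -0.0020 and SCD -0.0045, and with 1 library left out they ranged from -0.021 to 0.039, from -0.0083 to 0.039 and from -0.021 to 0.029.

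Counts of knockdown calls over all genes were small and moved with the processing, and the cause was not tested. Over both lines (0) the count was 1 with NM and NR rows summed, 1 as the mean of the within-line contrasts, and 0 to 4 without 1 library, with 4 reached without siRNA #2 of 786-O. In A498 (1) it was 0 with a pseudocount of 1, 5 with no filter, 0 at 5 FPKM or more, 3 with the highest row, 13 with NR rows, 3 in a fit to that line alone, 5 with each NM row on its own, and 1 to 8 without 1 library, highest without its siRNA #1. In 786-O (0) it was 3 with a pseudocount of 0.01, 2 with no filter, 4 with the highest row, 9 with NR rows, 4 with each NM row on its own, and 0 to 15 without 1 library, highest without its siRNA #2. For the difference between lines (1) it was 0 with a pseudocount of 1, 4 with no filter, 0 at 5 FPKM or more, 5 with the highest row, 16 with NR rows, 2 with each NM row on its own and 1 to 6 without 1 library, highest without siRNA #1 of A498. The fit of each NM row on its own was chosen after seeing the data.

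Genes past the ratio of 5 to 4 in a single siRNA library numbered 195 and 299 (A498, siRNA #1 and #2) and 299 and 173 (786-O) with a pseudocount of 1, and 1663, 2183, 1619 and 1205 with no filter. Without 1 NTC library of A498 they ranged from 465 to 675 for siRNA #1 and from 505 to 1142 for siRNA #2, the higher value in each case without the second NTC library.

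No source says that library numbers mark a shared culture, so they were used as names (correlation of deviations of same-numbered libraries 0.254 in A498 and -0.0312 in 786-O). With the replicate number as a block, 8723 genes were called between lines, 2 for the knockdown in A498, 0 in 786-O and over both lines, and 675 passed the ratio of 5 to 4 with siRNA #1 in A498.

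Groups of 2 libraries limit what can be seen, and the intervals given with each knockdown change show the sizes that remain possible as a mean over both lines. Larger changes remain possible within a line.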
